A study of Danio rerio with 6 samples.

Results

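The genes described here encode the proteasome, its activators and inhibitor, and the factors that assemble it. They were chosen by name: every Ensembl gene of the counts whose zebrafish symbol starts with psma, psmb, psmc, psmd, psme, psmf or psmg, or is *pomp* or *adrm1*. This rule found 59 of the 32057 genes counted, and 55 of them passed the filter on low counts among 16126 genes of the whole table that did. Symbols were written in lower case, and where 1 symbol names 2 genes (*psma6*, *psmd11* and *psme4*) the Ensembl identifier is given.

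Zebrafish embryos of AB/TL background were injected into the yolk at the 1-cell stage with in vitro transcribed mRNA that encodes Mcpip1, a P2A peptide and mTurquoise. Mcpip1, the product of *zc3h12a*, is an RNase that cleaves mRNAs. In the group Mcpip1 WT the enzyme was the active wild-type form, and in the group Mcpip1 DN it carried the substitution D112N, which removes catalytic activity. Both groups therefore carried injected *zc3h12a* mRNA, and no uninjected or mTurquoise-only embryos were analysed here. Poly(A) RNA of viable whole embryos at the shield stage, 6 hpf (hours after fertilization), was sequenced on the Ion Proton, with 3 libraries per group and about 10 pooled embryos per library. The comparison of Mcpip1 WT with Mcpip1 DN asks which transcripts depend on the RNase activity, and the genes below give its outcome for the protein degradation machinery.

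Between 17686041 and 24662219 reads per library were counted on genes, and 74764 to 114724 of them on the 59 proteasome genes. The reads of the injected gene cannot check the group labels, since both groups received its mRNA, and they were uneven between libraries. *Zc3h12a* (ENSDARG00000005271) took 0.744%, 0.0883% and 0.120% of gene counts in replicates 1 to 3 of Mcpip1 WT, against 0.150%, 0.0727% and 0.0397% in those of Mcpip1 DN. Mcpip1 WT replicate 1 thus held far more *zc3h12a* reads, injected and endogenous together, than any other library, and the second principal component of all genes (22.7% of the variance) set this library apart. The first component (35.9%) set Mcpip1 WT replicate 2 and Mcpip1 DN replicate 1 apart from the other 4 libraries, and so did not follow the groups. Of 16 identifiers of shield-stage marker genes, 14 were detected well enough to be tested. Both identifiers named *wnt8a* had no count in any library, and whether their reads were lost in counting was not tested. On the log2 scale, the mean level of the tested markers against their own average was 0.03, 0.48 and -0.69 in Mcpip1 WT against 0.52, -0.20 and -0.14 in Mcpip1 DN. The libraries of 1 group thus differed more than the group means did. These markers together took 0.586% to 0.863% of gene counts in Mcpip1 WT and 0.583% to 0.909% in Mcpip1 DN, while 9 markers of blood and later tissues took at most 0.00170% in any library, with both hemoglobin genes of that list at 0. Whether they came from separate clutches is not given in the sources used here, so p-values measure the spread between these pools only.

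As background, the proteasome is the main protease of the cytosol and nucleus for proteins tagged with ubiquitin. Its 20S core is a barrel of stacked rings, in which the outer rings of alpha subunits (the psma genes) gate the entrance and the inner rings of beta subunits (psmb) hold the active sites. The 19S regulatory particle caps the barrel: its base contains the ATPases (psmc) that unfold the substrate and the ubiquitin receptors encoded by *psmd4* and *adrm1*, and its lid contains the deubiquitinase encoded by *psmd14*. In vertebrates the catalytic beta subunits can be exchanged for the interferon-induced forms Psmb8, Psmb9 and Psmb10, and the core can be capped by other activators (psme). In early embryos protein degradation accompanies the replacement of maternal products by zygotic ones.

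No proteasome gene was called different between the groups with all libraries in the fit. By the threshold of the study, a fold change over 1.5 and an unadjusted p under 0.05, edgeR's quasi-likelihood test called 0 of 55 higher in Mcpip1 WT and 0 lower, where 0.874% and 1.27% of all genes tested were called. At an unadjusted p under 0.05 alone the count was also 0 (2.21% of all genes), and DESeq2 called 0 on the same genes. Shares this low predict few calls among 55 genes, so a count of 0 does not set the proteasome genes apart. The smallest unadjusted p was 0.121, for *psmd3*, and the adjusted p was 1.00 for each of the 55 genes in edgeR with Benjamini-Hochberg adjustment. No gene of the whole table had an adjusted p under 0.05 in this fit.

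The fold changes lay mostly on 1 side of zero. The log2 fold change of Mcpip1 WT over Mcpip1 DN was above 0 for 39 of the 55 genes and below 0 for 16, where 50.8% of all genes tested were above 0. Its median was 0.14, against 0.01 over all genes tested. Without Mcpip1 WT replicate 1, the library with the most *zc3h12a*, the count above 0 was 31 (48.7% of all genes) and the median was 0.03, so the shift was smaller without that library. With each of the other 5 libraries left out in turn, the count was between 33 and 46 and the median between 0.09 and 0.25. Of all genes, 48.5% to 52% were above 0 in these fits. The count of 33 came without Mcpip1 DN replicate 3 (52% of all genes), so the shift was smaller there too. The groups of 3 libraries did not overlap for only 1 proteasome gene, *psmb8*, which was lower in each Mcpip1 WT library after scaling (4.08% of all genes lay lower in this way, and 3.97% higher).

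The precision was moderate. For all 55 genes the 95% interval of the log2 fold change covered 0, which restates that no unadjusted p in edgeR was under 0.05. For 32 genes it lay within 2-fold in both directions, and for *psmb5*, *psmc3* and *psmc5* within 1.5-fold. For the other 23 genes a difference of 2-fold or more in at least 1 direction was inside the interval, so it could not be set aside at this replication. The plot of fold changes by class shows this spread.

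**Figure D1:**
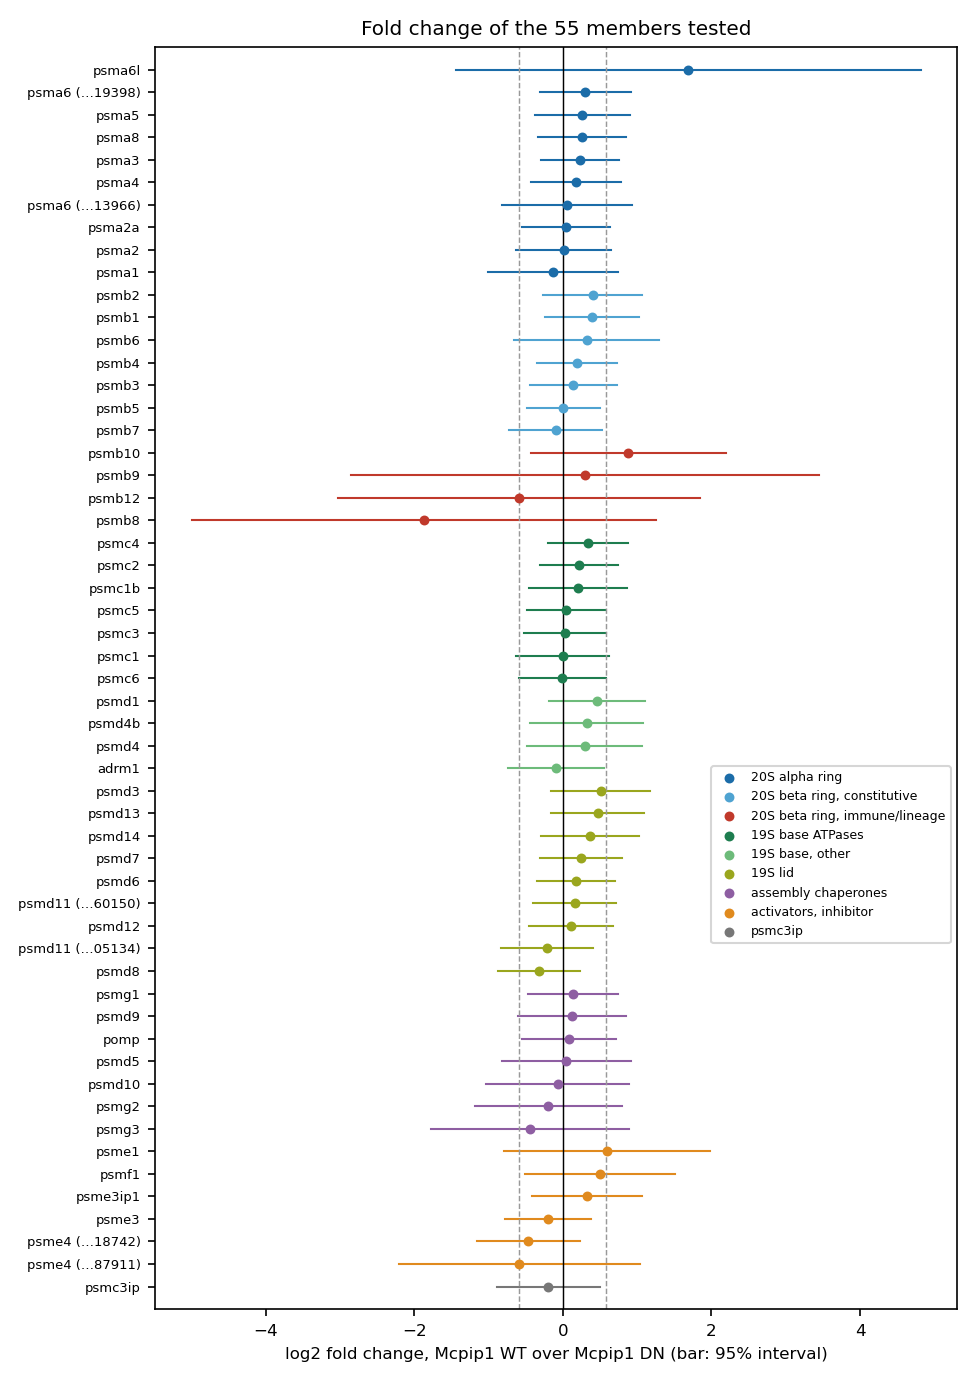
Log2 fold change of Mcpip1 WT over Mcpip1 DN for the 55 proteasome genes tested (x axis), 1 line per gene, coloured by class; points are edgeR estimates, bars 95% intervals, dashed lines a 1.5-fold change. Every bar crosses 0, most points lie to the right of 0, and the bars are widest for *psma6l*, *psmb8*, *psmb9* and *psmb12*, which had few reads.

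Of the alpha ring genes, which form the gate of the core particle, 9 of 10 lay above 0, with 0.20 as their median log2 fold change. The *psma6* gene with more reads (ENSDARG00000019398) had 4199, 3248 and 2252 normalized counts in Mcpip1 WT against 3139, 2459 and 2255 in Mcpip1 DN. Its log2 fold change was 0.30 (standard error 0.28). Normalized counts are read counts after library sizes were equalized. The Mcpip1 WT libraries of this gene spanned the whole range of the Mcpip1 DN libraries. *Psma5* had 2524, 1519 and 1315 normalized counts in Mcpip1 WT against 1534, 1427 and 1504 in Mcpip1 DN, so that replicate 1 of Mcpip1 WT stood above 5 libraries that were close together. The highest positive fold change of the 55 genes belonged to *psma6l*, a *psma6*-like gene, but on few reads: 78.1, 10.2 and 20.6 normalized counts in Mcpip1 WT against 0, 20.4 and 12.8 in Mcpip1 DN. Its log2 fold change was 1.69 (standard error 1.42, unadjusted p = 0.260 in edgeR) and 0.47 without Mcpip1 WT replicate 1. The alpha gene furthest below 0 was *psma1*, at -0.13, and its highest library was Mcpip1 DN replicate 1. *Psma8*, which the RefSeq table also lists under the name *psma7*, had a log2 fold change of 0.26.

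Of the constitutive beta ring genes, 6 of 7 were above 0, with a median of 0.19. Among the genes of the active sites, *psmb5* and *psmb7* had estimates near 0. *Psmb5*, the subunit with chymotrypsin-like activity, had 4500, 5251 and 4181 normalized counts in Mcpip1 WT against 4523, 4914 and 4448 in Mcpip1 DN. Its log2 fold change was 0.00 with a 95% interval from -0.48 to 0.49, and its highest library exceeded its lowest only 1.26-fold, less than for any other 20S or 19S subunit. *Psmb7*, with trypsin-like activity, had 4143, 4508 and 2643 in Mcpip1 WT against 5097, 3834 and 3156 in Mcpip1 DN (log2 fold change -0.10). *Psmb6*, with caspase-like activity, varied far more: 1821, 1158 and 975 normalized counts in Mcpip1 WT against 1730, 1003 and 437 in Mcpip1 DN. Its 4.17-fold range was the widest among the constitutive subunits apart from *psma6l*, and it lay within the groups more than between them. The non-catalytic *psmb1* and *psmb2* had the highest fold changes of this class, 0.39 and 0.40, with standard errors of 0.29 and 0.30.

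In the 19S base, the ATPase genes varied between libraries, the highest library exceeding the lowest 1.34- to 1.77-fold per gene. Their median log2 fold change was 0.05, 5 of 7 were above 0, and the highest estimate was that of *psmc4*, at 0.34 (standard error 0.25). *Psmc4* had 6840, 5821 and 4250 normalized counts in Mcpip1 WT against 4520, 4169 and 4665 in Mcpip1 DN, and the lowest Mcpip1 WT library lay inside the Mcpip1 DN range. The other base genes that were counted, without *psmd2*, had a median of 0.31. *Psmd1*, a scaffold that docks the ubiquitin receptor *adrm1*, had 11450, 10656 and 5639 normalized counts in Mcpip1 WT against 6604, 7348 and 6156 in Mcpip1 DN. Replicates 1 and 2 of Mcpip1 WT were thus above all other libraries and replicate 3 below them, and the log2 fold change of 0.46 had a standard error of 0.29. *Adrm1* was at -0.09, while the ubiquitin receptor genes *psmd4* and *psmd4b* were at 0.29 and 0.32.

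The 19S lid had a median of 0.18, with 7 of 9 genes above 0. *Psmd3*, a structural lid subunit, had 1958, 1766 and 1149 normalized counts in Mcpip1 WT against 1166, 1420 and 840 in Mcpip1 DN (log2 fold change 0.51, standard error 0.30). The lid subunit *psmd13* repeated this order in Mcpip1 WT, with 2199, 1848 and 1245 against 1509, 1214 and 1104, and a log2 fold change of 0.47. In a fit without Mcpip1 WT replicate 3, *psmd1*, *psmd3* and *psmd13* passed the threshold of the study, with log2 fold changes of 0.72, 0.70 and 0.66 and unadjusted p of 0.0172, 0.0429 and 0.0432 in edgeR, but an adjusted p of 1. These 3 were 3 of 55 genes, where 1.73% of all genes were called higher in that fit. *Psmd14*, the lid deubiquitinase, was at 0.36. The lowest of the constitutive 20S and 19S subunits was *psmd8*, at -0.32 (standard error 0.25). It had 1517, 1704 and 1216 normalized counts in Mcpip1 WT against 1578, 2034 and 1937 in Mcpip1 DN.

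Of the 37 constitutive 20S and 19S genes together, 30 were above 0, with a median of 0.19 and, apart from *psma6l*, a range from -0.32 to 0.51. Without Mcpip1 WT replicate 1 the count was 23 and the median 0.05, and with any other library left out the count was between 25 and 34. The split of reads between the 20S and 19S genes differed more within Mcpip1 DN than between the group means. Of all reads on these genes, the 20S genes took 41.8%, 40.7% and 41.7% in Mcpip1 WT against 44.7%, 41.6% and 40.2% in Mcpip1 DN. The mean share was 41.4% ± 0.615 for Mcpip1 WT and 42.1% ± 2.28 for Mcpip1 DN (SD, n = 3 each), and the groups overlapped. No transcript lengths were used, so the shares given here and below are shares of reads, and levels per length were not compared between genes.

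The libraries differed more than the groups. Over the 55 genes, the mean log2 level against each gene's own average was 0.30, -0.02 and -0.11 in Mcpip1 WT against 0.10, -0.12 and -0.14 in Mcpip1 DN. The group means of this score were 0.05 ± 0.22 (SD, n = 3) and -0.05 ± 0.13 (SD, n = 3), a difference smaller than the spread in either group. Mcpip1 WT replicate 1 was the highest of the 6 libraries for 25 of the 55 genes (45.5%, where it was the highest for 18.2% of all genes tested). Mcpip1 WT replicate 3, in the same group, was the highest for 2 and the lowest for 14, close to replicates 2 and 3 of Mcpip1 DN, which were the lowest for 15 and 16. Over all genes these 3 libraries were the lowest for 14%, 12.4% and 16%. For the 37 constitutive subunits the scores were 0.38, 0.12 and -0.21 in Mcpip1 WT against 0.02, -0.11 and -0.21 in Mcpip1 DN, so the third replicates of both groups lay lowest and close together. Without *psma6l*, which had no read in Mcpip1 DN replicate 1, the score of that library was 0.11 instead of 0.02. In whole embryos, fewer cells of a type and less RNA per cell cannot be told apart.

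Other features of the libraries moved as well. Beside the high *zc3h12a* of Mcpip1 WT replicate 1, a list of 10 heat shock genes scored 1.11, -0.93 and 1.47 in Mcpip1 WT against -0.91, -0.21 and -0.52 in Mcpip1 DN. The score was therefore high in replicates 1 and 3 of Mcpip1 WT. The list was not uniform. *Hsp70.1*, *hsp70l* and *hsp70.3* had log2 fold changes of 5.28, 4.59 and 3.78, with standard errors of 1.52, 1.39 and 0.81. The study had named hsp70 family genes from these libraries. Mcpip1 WT replicate 2 had only 1 read of *hsp70.1* and 3 of *hsp70l*, and the groups overlapped for both. For *hsp70.3* they did not overlap. Of the 10 genes 8 were above 0 and 2 below, and *dnajb1b* (-0.54) was lower in each Mcpip1 WT library. A list of 10 maternal oocyte transcripts scored 0.24, -0.20 and 0.43 against -0.28, -0.14 and -0.05. Markers of the yolk syncytial layer scored 0.10, 0.63 and -0.88 against 0.43, -0.04 and -0.23, and those of the enveloping layer 0.12, 0.28 and -0.66 against 0.55, -0.03 and -0.26. Mcpip1 WT replicate 3 was lowest for the stage, yolk syncytial and enveloping layer markers, and its constitutive subunits were low too. The part of these features in the proteasome values was not tested.

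**Figure D2:**
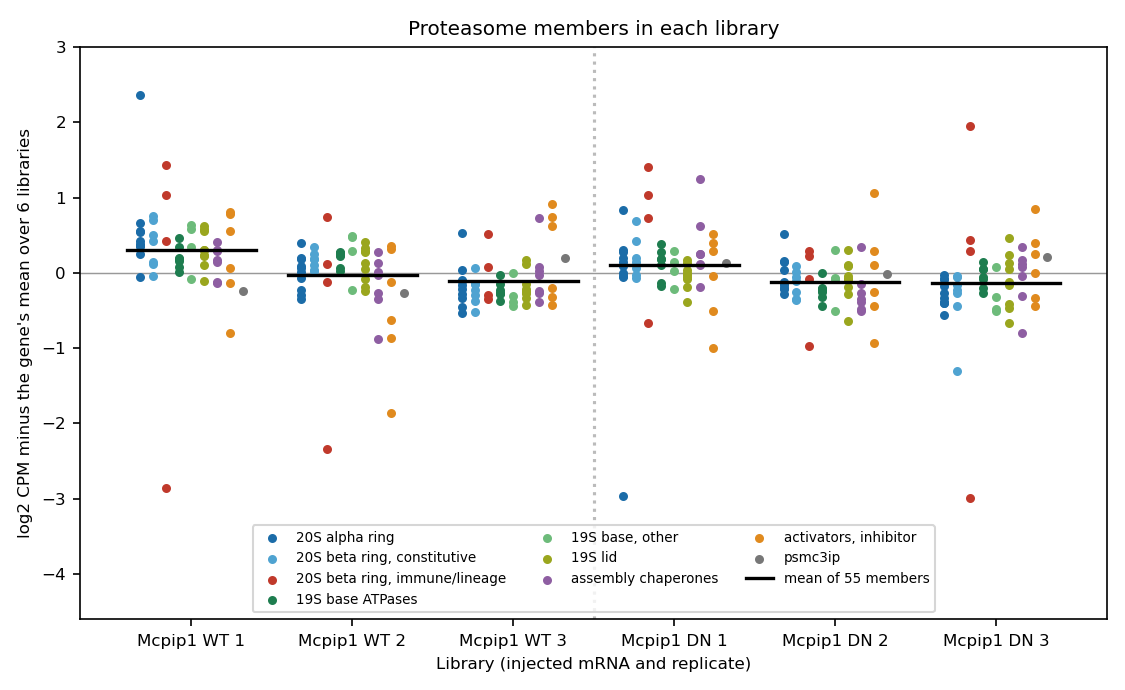
Level of each of the 55 proteasome genes tested in the 6 libraries (x axis), as log2 CPM (counts scaled to library size) minus the gene's mean over the libraries (y axis), coloured by class; the black line is the mean of the 55 genes. The mean is highest in Mcpip1 WT replicate 1, at 0.30, and between -0.14 and 0.10 in the other libraries.

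As a share of all gene counts, the 59 proteasome genes took 0.508%, 0.421% and 0.428% in Mcpip1 WT against 0.423%, 0.391% and 0.429% in Mcpip1 DN. The means were 0.452% ± 0.0484 (SD, n = 3) and 0.414% ± 0.0207 (SD, n = 3), and only replicate 1 of Mcpip1 WT lay outside the range of Mcpip1 DN on the high side.

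Apart from *psmb10*, the immune and lineage-specific beta genes had few reads. In the RefSeq table *psmb13a*, *psmb8a*, *psmb12* and *psmb9a* follow one another with no other protein-coding gene between them, and *psmb11a* is next to *psmb5*. *Psmb10*, the inducible counterpart of *psmb7*, had 383, 154 and 111 normalized counts in Mcpip1 WT against 88.1, 71.2 and 191 in Mcpip1 DN. Its log2 fold change was 0.88 (standard error 0.60, unadjusted p = 0.167 in edgeR), and 0.18 without Mcpip1 WT replicate 1, the library that set the estimate. *Psmb8*, the counterpart of *psmb5*, had 0, 11.3 and 13.2 normalized counts in Mcpip1 WT against 22.0, 14.8 and 54.0 in Mcpip1 DN. This is the gene whose groups did not overlap, with a log2 fold change of -1.87 and a standard error of 1.42 (unadjusted p = 0.215), and a library with no read allows up to 3 counts. The separation of *psmb8* depends on the scaling: unscaled, Mcpip1 WT replicate 3 and replicates 1 and 2 of Mcpip1 DN each had 16 reads, and as a share of the reads on *psmb5* and *psmb8* the groups overlapped, with 0.315% in Mcpip1 WT replicate 3 and 0.300% in Mcpip1 DN replicate 2. *Psmb9*, the counterpart of *psmb6*, had 19.3, 24.6 and 20.6 against 39.9, 13.0 and 0, and *psmb12* had 50.7, 3.07 and 19 against 51.0, 29.6 and 29.4. Their log2 fold changes of 0.30 and -0.59 had standard errors of 1.43 and 1.11, and the sign for *psmb9* turned to -0.32 without Mcpip1 DN replicate 3, where it had no read. Leaving out Mcpip1 WT replicate 1 moved *psmb12* to -1.71, and leaving out replicate 2 of that group moved it to -0.07.

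Below the filter on low counts lay *psmb11*, with 2 reads in all, both in Mcpip1 WT replicate 3, and *psmb11b*, with 1 read in Mcpip1 DN replicate 1. *Psmb13a* had 7 reads in Mcpip1 WT replicate 2, 3 in Mcpip1 DN replicate 2 and none elsewhere. In mammals *PSMB11* is the thymus-specific beta subunit, and the thymus has not formed at this stage.

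*Psmb12*, with 3 to 50 reads per library, was left out of the next share, which covers 6 catalytic beta genes, *psmb5* to *psmb10*. Of the reads on these 6, the immune genes *psmb8*, *psmb9* and *psmb10* together took a small part. Their share was 3.70% (95% Wilson interval 3.36% to 4.08%), 1.71% (1.48% to 1.97%) and 1.82% (1.57% to 2.11%) in Mcpip1 WT. It was 1.31% (1.08% to 1.57%), 1.01% (0.832% to 1.21%) and 2.96% (2.62% to 3.34%) in Mcpip1 DN. These intervals cover counting error only, and the libraries of 1 group differed beyond them. The means of 2.41% ± 1.12 (SD, n = 3) and 1.76% ± 1.05 (SD, n = 3) differed by less than the spread between replicates. *Psmb10* supplied most of these reads: it took between 3.29% and 8.47% of the reads on *psmb7* and *psmb10* in Mcpip1 WT and between 1.70% and 5.72% in Mcpip1 DN.

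**Figure D3:**
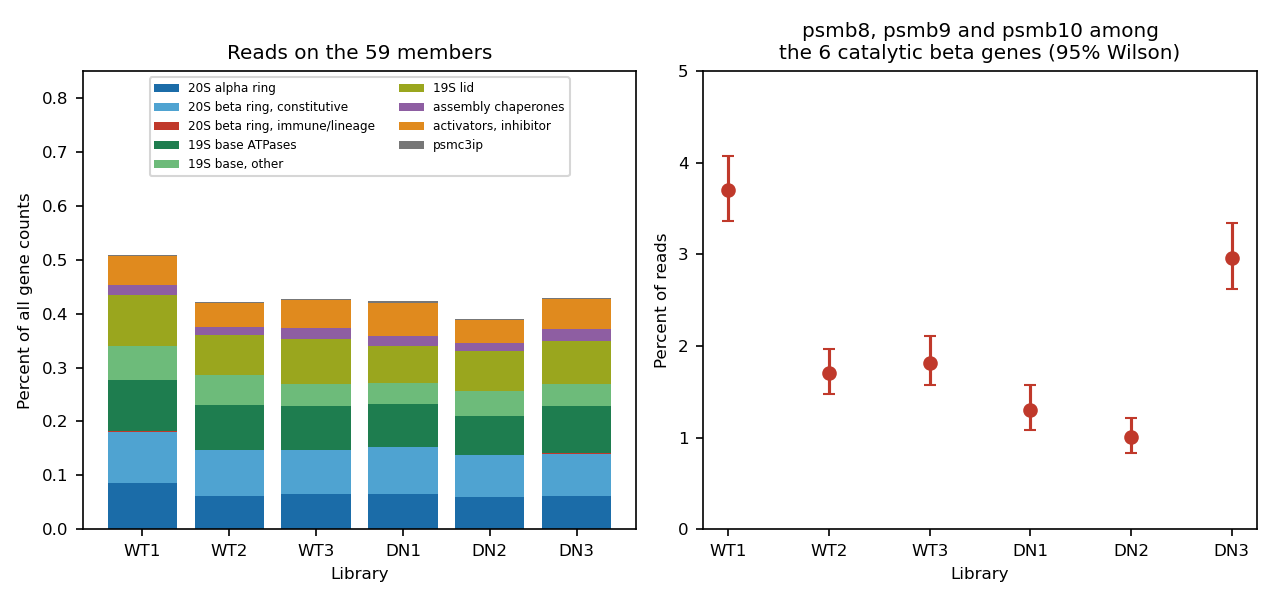
Left, percent of all gene counts on the 59 proteasome genes in each library, stacked by class; right, percent of the reads on the 6 catalytic beta genes that fell on *psmb8*, *psmb9* and *psmb10*, with 95% Wilson intervals (counting error only). WT1 to WT3 and DN1 to DN3 are the replicates of Mcpip1 WT and Mcpip1 DN. The total was highest in WT1 at 0.508%, and the share of *psmb8*, *psmb9* and *psmb10* ranged from 1.01% (DN2) to 3.70% (WT1).

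The activators followed no common direction. *Psme3* encodes PA28 gamma, the nuclear activator, and had 8021, 7041 and 6648 normalized counts in Mcpip1 WT against 10911, 6395 and 7594 in Mcpip1 DN. Its log2 fold change of -0.20 (standard error 0.26) became 0.049 without Mcpip1 DN replicate 1. *Psme1*, a subunit of the interferon-inducible activator PA28 alpha-beta, had 242, 90.1 and 266 normalized counts in Mcpip1 WT against 68.9, 72.2 and 254 in Mcpip1 DN. In each group the values fell into high and low libraries, and the log2 fold change was 0.60 (standard error 0.63). Without Mcpip1 DN replicate 3 it was 1.48, past the threshold of the study with an unadjusted p of 0.0387 in edgeR and an adjusted p of 1. *Psme1* was the 1 gene of 55 called higher in that fit, where 0.863% of all genes were. Its partner *psme2* stayed below the filter, with 3 reads in Mcpip1 WT, all in replicate 3, and 17 and 2 in replicates 2 and 3 of Mcpip1 DN.

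*Psme4* encodes PA200, an activator linked to histone degradation. The gene with more reads (ENSDARG00000018742) had 682, 1485 and 954 normalized counts in Mcpip1 WT against 1456, 1273 and 1571 in Mcpip1 DN. Its log2 fold change was -0.46 (standard error 0.31). Only Mcpip1 WT replicate 2 reached the Mcpip1 DN range. Without that library the log2 fold change was -0.81, past the threshold with an unadjusted p of 0.0235 in edgeR and an adjusted p of 1. This gene was the 1 of 55 called lower in that fit, where 3.03% of all genes were. The other *psme4* (ENSDARG00000087911) had 61.9, 17.4 and 116 against 66.1, 145 and 81.4 (log2 fold change -0.59, standard error 0.74). Its value moved to -1.31 without Mcpip1 WT replicate 3 and to -0.14 without Mcpip1 WT replicate 2. *Psmf1*, the inhibitor PI31, had 637, 198 and 555 normalized counts in Mcpip1 WT against 253, 440 and 286 in Mcpip1 DN. Its log2 fold change of 0.50 (standard error 0.46) also turned on Mcpip1 WT replicate 2. Without that library it was 0.87, with an unadjusted p of 0.0437 in edgeR and an adjusted p of 1. *Psmf1* was the 1 gene of 55 called higher in that fit, where 1.2% of all genes were. Without Mcpip1 WT replicate 1 its log2 fold change was 0.21. *Psme3ip1*, whose product binds PA28 gamma, was at 0.33 (standard error 0.33), with 2505, 2187 and 1260 against 2243, 1254 and 1252.

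**Figure D4:**
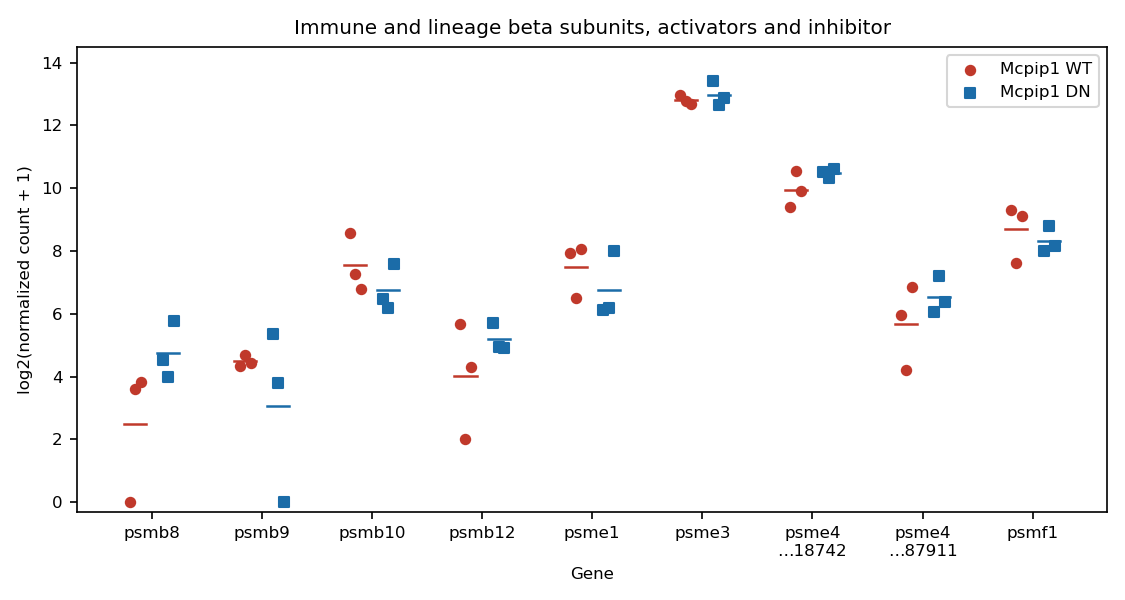
Log2 of the normalized count plus 1 (y axis) of the immune and lineage beta genes, the activators and the inhibitor, 1 point per library (circles Mcpip1 WT, squares Mcpip1 DN), with group means of this value as lines. The groups overlap for each gene shown except *psmb8*, and the low genes *psmb8*, *psmb9* and *psmb12* spread most.

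Of the assembly factors 4 of 7 lay above 0, with a median of 0.05 on the log2 scale. *Pomp*, the chaperone that matures the core, had 1564, 1151 and 972 normalized counts in Mcpip1 WT against 1274, 922 and 1277 in Mcpip1 DN (log2 fold change 0.09, standard error 0.29). The alpha ring chaperones *psmg1* and *psmg2* were at 0.14 and -0.19, and the base chaperones *psmd5*, *psmd9* and *psmd10* at 0.05, 0.13 and -0.07. *Psmg3*, a chaperone of the early core, had 140, 89.1 and 95.8 normalized counts in Mcpip1 WT against 274, 103 and 64.8 in Mcpip1 DN. Its log2 fold change of -0.44 (standard error 0.60) rested on Mcpip1 DN replicate 1, without which it was 0.37. *Psmc3ip* matches the naming rule only by its symbol, since it encodes a factor of meiotic recombination. It was at -0.19 (standard error 0.32).

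Several subunits have 2 genes in zebrafish, and reads can be split between such copies with some uncertainty. The *psma6* gene ENSDARG00000019398 took between 88.9% and 93.5% of the reads of its pair in the 6 libraries. For *psmc1b* the share of its pair was 64.7%, 65.6% and 62.3% in Mcpip1 WT against 64.1%, 58.6% and 58.8% in Mcpip1 DN, and for the *psmd11* gene ENSDARG00000060150 74.6%, 69.7% and 78.5% against 67.3%, 74.5% and 66.0%. *Psma2a* ranged from 56.5% to 68.0% and *psmd4b* from 43.4% to 65.6%. The groups overlapped in all 5 of these pairs, and their differences were not tested.

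The genes around the proteasome were described by a list of 44 symbols. It covers proteasome transcription factors, ubiquitin, activating enzymes of ubiquitin and of a ubiquitin-like protein (*uba3*), proteasome-bound deubiquitinases, and shuttle factors with p97. The list gave 37 identifiers, all tested: 22 were above 0 and 15 below, with a median of 0.05. The test called 1 of the 37 higher in Mcpip1 WT and 0 lower, where 0.874% and 1.27% of all genes were called. This gene was *ufd1*, a cofactor of the p97 segregase that extracts ubiquitinated proteins, and it is among the genes the study displayed from these libraries, so it is no independent evidence. It had 2246, 1656 and 999 normalized counts in Mcpip1 WT against 1161, 804 and 619 in Mcpip1 DN (log2 fold change 0.92, standard error 0.35, unadjusted p = 0.0240 and adjusted p = 1.00 in edgeR). The groups overlapped for *ufd1*, since Mcpip1 DN replicate 1 was above Mcpip1 WT replicate 3, and the call was lost without Mcpip1 WT replicate 1 (log2 fold change 0.63), without Mcpip1 DN replicate 2 (0.85) and without Mcpip1 DN replicate 3 (0.71).

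For 4 others of the 37 genes each Mcpip1 WT library was above each Mcpip1 DN library, and none lay below in this way, where 3.97% of all genes lay above and 4.08% below. They were the deubiquitinases *usp14* and *uchl5* (log2 fold changes 0.21 and 0.60), the p97 cofactor *faf1* (0.50) and *nfe2l2b*, a stress-response transcription factor gene (1.85, standard error 1.01). For *usp14* the separation was narrow and depended on the scaling. Mcpip1 WT replicate 2 had 2048 normalized counts against 2035 in Mcpip1 DN replicate 1. Unscaled, Mcpip1 WT replicate 2 had 2000 reads and Mcpip1 DN replicate 3 had 2015, so the groups overlapped. *Nfe2l2b* was low, with 49, 22 and 76 reads in Mcpip1 WT against 12, 13 and 9 in Mcpip1 DN, and none of the 4 had an unadjusted p under 0.05. *Nfe2l1* and *nfe2l1b*, named after the factor that induces proteasome genes in mammals, had log2 fold changes of -1.21 (standard error 0.88) and -0.01 (standard error 0.68). *Ddi2*, which encodes the protease that activates that factor in mammals, was at 0.00 (standard error 0.24). *Nfe2l3*, another gene of this list of transcription factors and their processing, was at -0.51 (standard error 0.30). Of the 8 genes of that list, 2 were above 0 and 6 below, with a median of -0.22. Of the 8 ubiquitin and activating enzyme genes 5 were above 0, and of the 10 deubiquitinases and bound factors 5. Of the 11 shuttle factor and p97 genes, 10 were above 0, with a median of 0.23, and *vcp*, p97 itself, was at 0.31 (standard error 0.29).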

How the data were processed

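Reads of the Ion Proton libraries were mapped by the authors to GRCz11 with STAR 2.7.10a and, for reads left unmapped, bowtie2 2.4.4, and counted per Ensembl gene with htseq-count. The deposited values are raw counts without normalization. The Ensembl release, the strand setting and the htseq-count version are not given in the sources used here, so overlapping genes, antisense genes and close paralogs are uncertain. Each of the 6 files ends with 5 entries for reads assigned to no gene (16.5% to 26.1% of all counts), which were left out. Groups and replicate numbers came from the sample labels. Symbols came from the gene name table, which matched 28988 of 32057 identifiers. Genes with no counted identifier under the naming rule were not analysed here, among them the 19S base gene *psmd2* and the assembly gene *psmg4*. The 19S gene *sem1* falls outside this rule.

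In R 4.3.3, edgeR 4.0.16 was used with its filterByExpr (minimum count 10), TMM scaling and quasi-likelihood test (glmQLFit, glmQLFTest) of the 2 groups over 16126 genes, with no covariate and with Benjamini-Hochberg adjustment. DESeq2 1.42.0 was an alternative, as were RLE scaling, looser and stricter filters, a replicate block, and the omission of each library in turn. Scores are means of log2 CPM (prior count 2) minus each gene's mean. The standard error is the absolute log2 fold change over the root of F. With 3 libraries against 3, the smallest 2-sided exact permutation p is 0.1, so none was used. Tests were tried on simulated data. The chi-square of counts found no library deposited more than once.

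The genes and lists were chosen with earlier results of these data known. Named in full were genes past the threshold, those whose groups did not overlap, the 5 highest and 5 lowest fold changes, *psmb8* to *psmb13*, the activators and inhibitor, genes below the filter and surrounding genes past the threshold; other genes named were chosen after their values were seen. The RefSeq table has another assembly (GRCz12tu) and served only for names and neighbours. Planned comparisons of promoters, proteins and levels per length were not made, since no sequences or transcript lengths were used here.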

Additional observations from a re-analysis of the deposited data

How the results depend on the processing

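The alternatives chosen after seeing the data were the counts above 0, the counts at an unadjusted or adjusted p under 0.05, the medians of all genes and the values of the constitutive subunits, each under the settings below. With DESeq2 on the same genes, DESeq2's size factors or the replicate block, 0 of 55 proteasome genes passed the threshold of the study and 37 to 38 were above 0. With a minimum count of 30, 0 of 52 passed and 37 were above 0. With all genes of at least 1 count, 0 of 59 passed, and 41 in edgeR and 39 in DESeq2 were above 0. The median was 0.13 to 0.16 in these settings. Of all genes, 49.6% to 51.6% were above 0, 0.812% to 1.37% were called higher and 1.27% to 1.79% lower. In the edgeR test of the Results, 345 of all genes passed the threshold (141 higher, 204 lower). With all genes of at least 1 count, edgeR called 768 (336 higher, 432 lower) and DESeq2 624 (296 higher, 328 lower), with more genes tested. An adjusted p under 0.05 was reached by 9 genes in that edgeR fit and by 1 in DESeq2 on the same genes. None of these was a proteasome gene, and no gene reached it in any other setting.

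Leaving out each library in turn gave 0 to 3 of 55 proteasome genes higher and 0 to 1 lower. Of all genes it gave 144 to 715 (69 to 291 higher, 75 to 512 lower), which was 0.406% to 1.73% higher and 0.442% to 3.03% lower. Groups did not overlap for 0 to 12 proteasome genes higher and 1 to 3 lower. Over all genes these settings, which compare fewer samples, gave 6.5% to 10.8% higher and 5.77% to 10.2% lower. The 12 came without Mcpip1 WT replicate 3 (10.3% of all genes). The fold changes of *psme3* (-0.37 to 0.049) and *psmg3* (-0.83 to 0.37) turned positive without Mcpip1 DN replicate 1, and that of *psmb9* (-0.32 to 1.71) turned negative without Mcpip1 DN replicate 3; the cause was not tested. Of 165 values for 14 named genes under the alternatives, 155 kept direction and call, 4 passed the threshold with a library left out, 3 (of *ufd1*) no longer passed it, and 3 changed direction.

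Whether the replicate numbers pair the samples is not given in the sources used here. Deviations from the group means correlated at 0.01, -0.08 and 0.30 for same-numbered libraries. For libraries with different numbers they correlated at -0.36 (Mcpip1 WT replicate 3 with Mcpip1 DN replicate 1) to 0.29 (Mcpip1 WT replicate 2 with Mcpip1 DN replicate 1). With 3 libraries per group these values depend on each other, so they cannot decide whether the libraries were paired. With the replicate block, 0 proteasome genes were called, 38 were above 0 and the median was 0.16. Genes under about 50 normalized counts, *psma6l*, *psmb8*, *psmb9* and *psmb12*, had standard errors above 1 on the log2 scale, and for them depth limits any statement.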
